A study of Homo sapiens with 6 samples.

Results

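DNA replication genes were examined in OCI-AML2, an established line of human acute myeloid leukaemia cells, in 3 libraries from cells given 100 nM MRT199665 for 48 h and 3 libraries from cells given the vehicle alone for the same time. The labels call MRT199665 a MARK kinase inhibitor, and the series title concerns MEF2C phosphorylation and resistance to chemotherapy. Per the labels, the cultures were clones of single cells. Nothing in the labels ties each library to a culture of its own, and p-values therefore reflect library-to-library spread that could be technical. The genes were the 46 rows of the deposited count table, out of 55765, whose symbols were on a list of replication genes. All 46 passed the filter on low counts, and the lowest count of any of them in a library was 17.

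Replication starts at origins, where the origin recognition complex with CDC6 and CDT1 loads the MCM2 to MCM7 helicase in G1 (licensing), and geminin (GMNN) and the DTL ubiquitin ligase adaptor restrain CDT1 afterwards. In S phase CDC45 and the GINS complex turn the loaded helicase on, primase and polymerase alpha lay down primers, and polymerases delta and epsilon extend them on the PCNA clamp, which the RFC complex loads. Many of these genes are transcribed under E2F factors as cells enter S phase, so that their messenger RNA levels are widely used as a readout of proliferation, also in leukaemia cells.

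Total counts lay between 5871097 in MRT199665 replicate 2 and 14308650 in MRT199665 replicate 3, with all vehicle libraries in between. Of 12 myeloid markers, 9 had a mean of at least 1 CPM (counts relative to library totals scaled by the TMM method), among them MPO at 77.4 CPM and SPI1 at 66.9 CPM, while CEBPA and IL3RA were listed at 0 in all libraries. The summed level of the 12 markers was 501 to 551 CPM with MRT199665 and 413 to 527 CPM with vehicle. Of 11 markers of other cell types, ITGA2B at 1.56 CPM had a mean of at least 1 CPM and 4 (CD2, MS4A1, HBB and PF4) were at 0. Their sums were 3.97 to 5.58 CPM with MRT199665 and 1.85 to 3.16 CPM with vehicle, low in both groups but without overlap. ITGA2B, with the highest mean among them, had 1.59, 4.06 and 1.42 CPM with MRT199665, against 0.755, 0.515 and 1.02 CPM with vehicle. CD79A did not overlap between groups either, while COL1A1 and CD3D did, so the sums do not stand for the 11 markers as a set. The part of these markers in the results was not tested.

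With MRT199665 the replication genes had slightly lower transcript levels on the whole, and no single one passed the test over all genes. The 46 genes summed to 3414, 3168 and 3491 CPM in MRT199665 replicates 1, 2 and 3, against 3926, 3983 and 3902 CPM in vehicle replicates 1, 2 and 3. Every MRT199665 library therefore held a smaller sum than every vehicle library. Abundant genes weigh most in these sums, such as CDT1 (mean 267 against 374 CPM) and LIG1 (240 against 351 CPM). With equal weight for each gene, log2 CPM centred per gene averaged -0.10, -0.15 and -0.04 in the MRT199665 libraries. The vehicle libraries averaged 0.15, 0.03 and 0.11. The log2 fold change (MRT199665 over vehicle) was negative for 39 genes and positive for 7, with a median of -0.20, while 49.1% of the 13053 genes tested were negative and their median was 0.01. In bulk samples, fewer cells in S phase and less of these RNAs per cell cannot be told apart.

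By the edgeR quasi-likelihood test (two-sided, Benjamini-Hochberg adjustment over all genes, threshold 0.05) 0 of the 46 were called, against 1.25% of all genes tested. DESeq2 called 1 of them, ORC1 (2.17%, against 2.78% of all genes), and limma-voom none. On unfiltered counts edgeR called 4 of the 46 (8.70%, against 2.28% of all 28230 genes then tested). These 28230 include the genes that fail the low-count filter, which all 46 passed, so the 2 shares cover unlike sets. At an unadjusted p under 0.05, 11 genes were lower (23.9%, against 7.11% of all genes tested) and 0 were higher (against 7.64%). In 14 genes every MRT199665 library lay below every vehicle library (30.4%, against 10.8% of all genes tested), and in 0 genes the reverse held (against 11.4%). The changes were small. ORC1 was the 1 member that differed by more than 1.5-fold (2.17%, against 10.3% of all genes tested), and the median SE of the log2 fold changes was 0.16. The number lower at an unadjusted p under 0.05 was 6 without MRT199665 replicate 2 (13.0%, against 6.27% of all genes in that fit) and 7 without vehicle replicate 2 (15.2%, against 5.76%). It was 6 without both MRT199665 replicate 1 and vehicle replicate 2 (13.0%, against 4.89%). Without vehicle replicate 1, 2 members were higher at that level (4.35%, against 8.74%). Across leaving out each library in turn, between 34 and 41 of the 46 were negative.

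**Figure D1:**
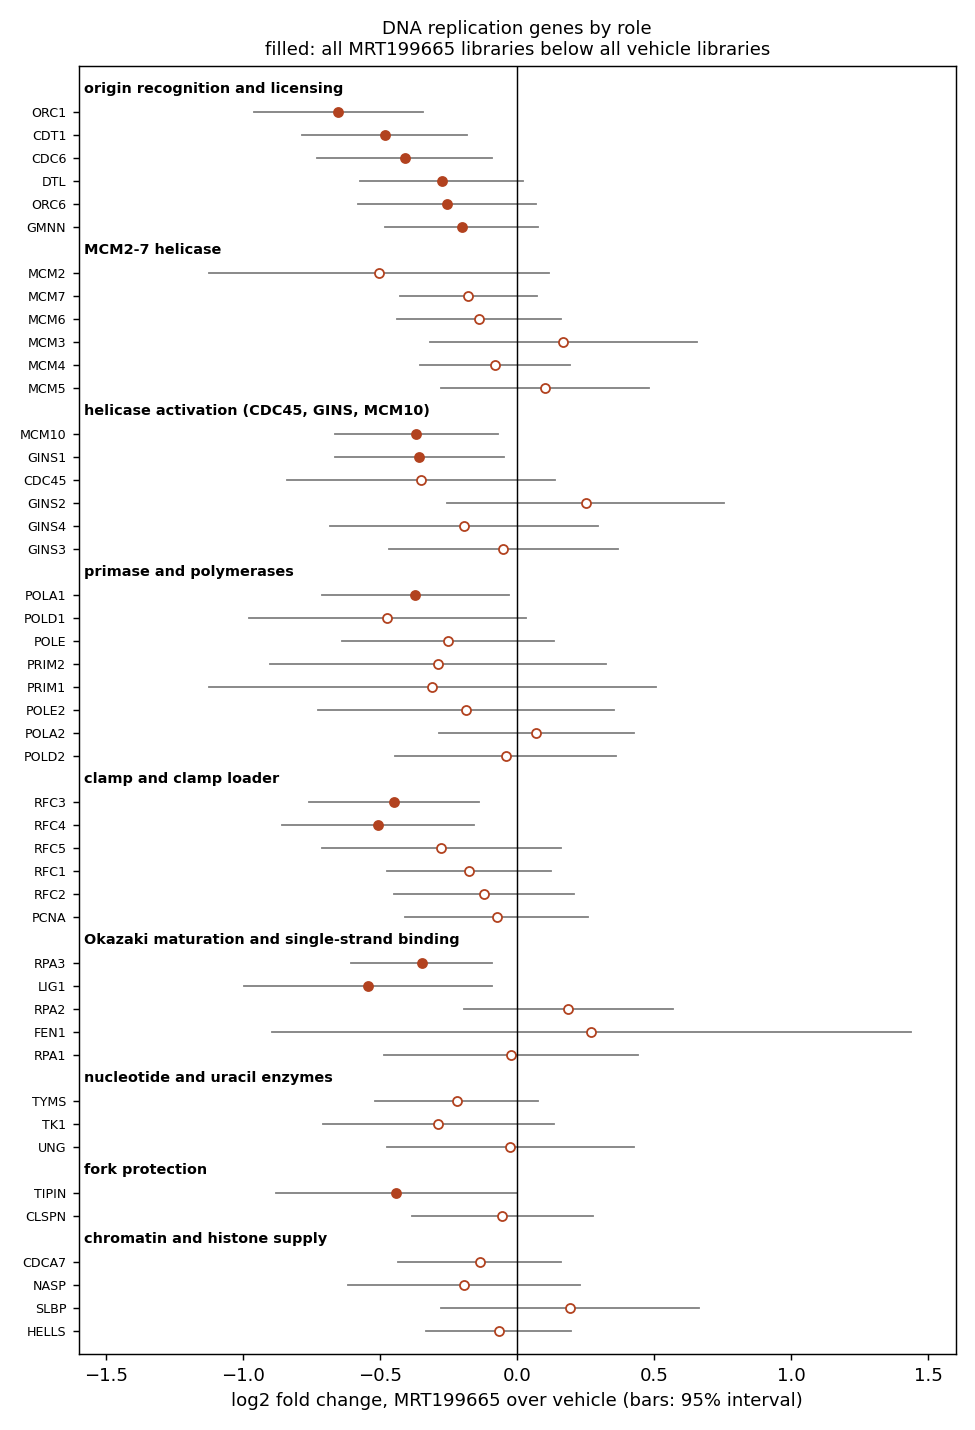
Log2 fold change (MRT199665 over vehicle, x axis) of each of the 46 replication genes, grouped by role, with bars for the 95% interval of the edgeR estimate and filled points where all 3 MRT199665 libraries lay below all 3 vehicle libraries. All 6 listed origin recognition and licensing genes are filled and left of 0. None of the MCM2 to MCM7 genes is filled, and FEN1 has the widest interval. Of all genes tested, 10.8% were lower without overlap.

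**Figure D2:**
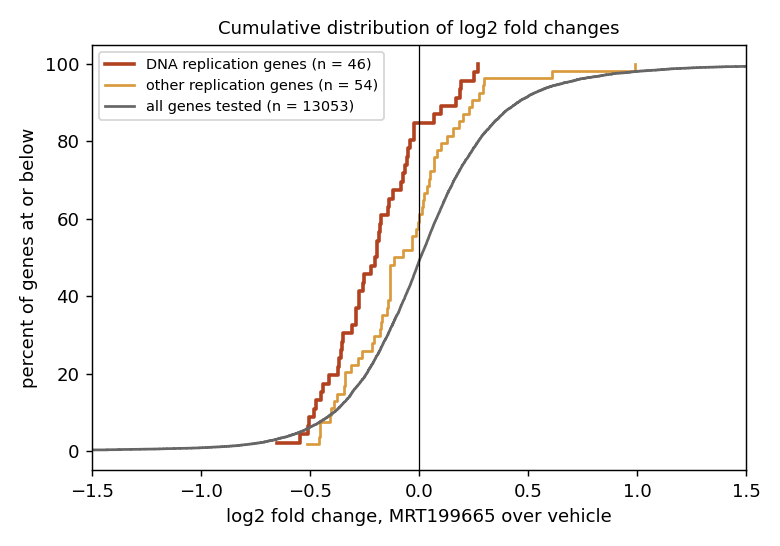
Cumulative percent of genes (y axis) at or below a log2 fold change (MRT199665 over vehicle, x axis, cropped at its extremes) for the 46 replication genes, 54 other replication genes and all 13053 genes tested. The curve of the 46 genes lies left of that of all genes through its middle, with medians of -0.20 and 0.01, and the median of the other replication genes lies between them at -0.09.

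Many promoters of these genes hold short words of the kind E2F factors bind. The words were not used to choose the genes, but many of the genes are known to be under E2F factors. The list itself therefore favours such words. The word TTCCCGC, its variant TTGGCGC, the mixed form TTCGCGC and the other mixed form TTGCCGC were searched on both strands, with overlapping matches allowed, in RefSeq windows (GRCh38.p14) from 250 bases before to 50 after each annotated start. Of the 46 genes, 41 had a window, and 32 of these (78.0%) held a word in at least 1 window, against 15.3% of all 27305 genes in that table. Before the start, 23 (56.1%) held a word, against 13.0% of all genes. The genes compared were not matched for base content. The median log2 fold change was -0.21 over the 32 genes with a word, of which 29 were negative, and -0.26 over the 9 without, of which 7 were negative. The fold changes of both sets overlapped, from -0.65 to 0.25 with a word and from -0.47 to 0.27 without, and a match is not evidence of binding. The 6 sequences below are the 250 bases before the start of the genes with the lowest p among those that held a word there, with the words in capitals. They lie at chr1:52404424-52404673 (minus strand), chr16:88803539-88803788 (plus), chr13:33817899-33818148 (plus), chr3:186806483-186806732 (minus), chr19:48170345-48170594 (minus) and chrX:24693668-24693917 (plus), and the counts themselves were made on the hg19 build.
ORC1: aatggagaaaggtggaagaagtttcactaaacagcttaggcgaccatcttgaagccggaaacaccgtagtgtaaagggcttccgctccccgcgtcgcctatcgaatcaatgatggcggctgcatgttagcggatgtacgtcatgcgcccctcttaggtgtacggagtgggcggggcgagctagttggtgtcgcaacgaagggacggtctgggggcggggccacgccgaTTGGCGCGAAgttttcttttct
CDT1: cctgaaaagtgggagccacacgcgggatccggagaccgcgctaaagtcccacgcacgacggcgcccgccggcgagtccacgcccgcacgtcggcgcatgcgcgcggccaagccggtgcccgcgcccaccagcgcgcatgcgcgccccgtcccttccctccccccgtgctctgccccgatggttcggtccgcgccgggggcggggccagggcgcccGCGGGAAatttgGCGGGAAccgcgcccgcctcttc
RFC3: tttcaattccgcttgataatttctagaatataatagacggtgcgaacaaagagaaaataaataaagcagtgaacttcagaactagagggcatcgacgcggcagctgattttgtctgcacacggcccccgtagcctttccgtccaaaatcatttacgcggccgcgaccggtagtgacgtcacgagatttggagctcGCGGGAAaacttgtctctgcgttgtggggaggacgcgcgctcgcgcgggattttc
RFC4: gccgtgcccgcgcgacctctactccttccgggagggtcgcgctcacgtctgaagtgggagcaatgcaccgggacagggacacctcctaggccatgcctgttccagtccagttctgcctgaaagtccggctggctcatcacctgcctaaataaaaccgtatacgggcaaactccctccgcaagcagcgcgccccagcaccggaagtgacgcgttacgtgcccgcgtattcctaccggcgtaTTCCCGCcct
LIG1: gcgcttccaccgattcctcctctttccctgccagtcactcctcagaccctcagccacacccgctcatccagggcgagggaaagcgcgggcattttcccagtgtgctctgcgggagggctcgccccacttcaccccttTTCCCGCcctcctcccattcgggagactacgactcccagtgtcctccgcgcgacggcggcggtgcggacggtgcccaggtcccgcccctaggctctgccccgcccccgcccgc
POLA1: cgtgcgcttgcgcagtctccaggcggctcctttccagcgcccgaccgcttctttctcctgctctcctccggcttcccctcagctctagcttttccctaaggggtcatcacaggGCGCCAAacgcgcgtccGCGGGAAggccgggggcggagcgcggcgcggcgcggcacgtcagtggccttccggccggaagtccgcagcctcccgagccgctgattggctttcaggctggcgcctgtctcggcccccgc
In ORC1 the capitals are TTGGCGC and, overlapping it on the other strand, TTCGCGC, starting 22 and 19 bases before the start. CDT1 held TTCCCGC on the other strand 35 and 23 bases before the start, RFC3 at 55 bases on the other strand, RFC4 at 10 bases on the gene's own strand and LIG1 at 113 bases on its own strand. In POLA1 the words, both on the other strand, were TTGGCGC at 137 bases and TTCCCGC at 120 bases.

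The 6 listed origin recognition and licensing genes had lower levels with MRT199665 in every member. All 6 had MRT199665 libraries below all vehicle libraries, which held for 10.8% of all genes tested. At an unadjusted p under 0.05, 3 were lower, against 7.11% of all genes tested. The median log2 fold change was -0.34, and between -0.41 and -0.25 when each library was left out in turn. Summed, the 6 genes stood at 390, 403 and 411 CPM in the MRT199665 libraries, against 483, 588 and 558 CPM in the vehicle libraries. Of the origin recognition subunits, these 6 hold only ORC1 and ORC6. ORC2, ORC3, ORC4 and ORC5, from the further list described below, had log2 fold changes of -0.13, -0.14, -0.18 and -0.39. The groups overlapped in ORC2, ORC3 and ORC5. In ORC4 they barely separated, with 14.42 CPM in MRT199665 replicate 1 and 14.43 CPM in vehicle replicate 1.

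ORC1, the large ATPase subunit of the origin recognition complex whose level is cell cycle regulated, had 10.2, 10.1 and 11.1 CPM in MRT199665 replicates 1, 2 and 3, against 17.8, 16.1 and 15.6 CPM in vehicle replicates 1, 2 and 3. The groups were well apart and each was tight. ORC1 was 1.57-fold lower (log2 fold change -0.65 ± 0.14, SE, adjusted p = 0.0669 by edgeR). Its log2 fold change stayed between -0.71 and -0.58 over 16 alternative settings. It was called in 2 of these, by DESeq2 (adjusted p = 0.0356) and by edgeR on unfiltered counts (0.0284). With each library left out in turn, its adjusted p by edgeR lay between 0.119 and 0.237. With the replicate block the adjusted p by edgeR was 0.414.

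CDT1, the licensing factor that brings the helicase to origins, had 248, 285 and 268 CPM in the MRT199665 libraries, against 321, 419 and 381 CPM in the vehicle libraries. The highest treated library, replicate 2, lay below the lowest vehicle library, replicate 1. CDT1 was 1.40-fold lower (log2 fold change -0.48 ± 0.13, SE, adjusted p = 0.140 by edgeR). CDC6, the ATPase that acts with CDT1 in loading, had 31.9, 25.2 and 34.0 CPM with MRT199665, against 39.0, 42.5 and 40.4 CPM with vehicle. Its 1.33-fold lower level (log2 fold change -0.41 ± 0.14, SE) had an adjusted p of 0.218 by edgeR.

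The remaining licensing genes differed less. DTL, the CUL4 ligase adaptor that directs CDT1 to destruction, had 63.6, 49.9 and 61.2 CPM with MRT199665, against 64.8, 70.9 and 76.4 CPM with vehicle, so that the nearest libraries almost touched. ORC6, the smallest origin recognition subunit, had 15.2, 12.5 and 14.9 CPM, against 17.5, 15.4 and 18.2 CPM, with a similarly narrow gap. GMNN, which encodes the CDT1 inhibitor geminin, had 20.9, 20.8 and 21.8 CPM with MRT199665, against 23.2, 23.5 and 26.5 CPM with vehicle. The loading factor and its inhibitor were thus both at lower levels, with log2 fold changes of -0.48 for CDT1 and -0.20 for GMNN (95% interval -0.48 to 0.08).

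**Figure D3:**
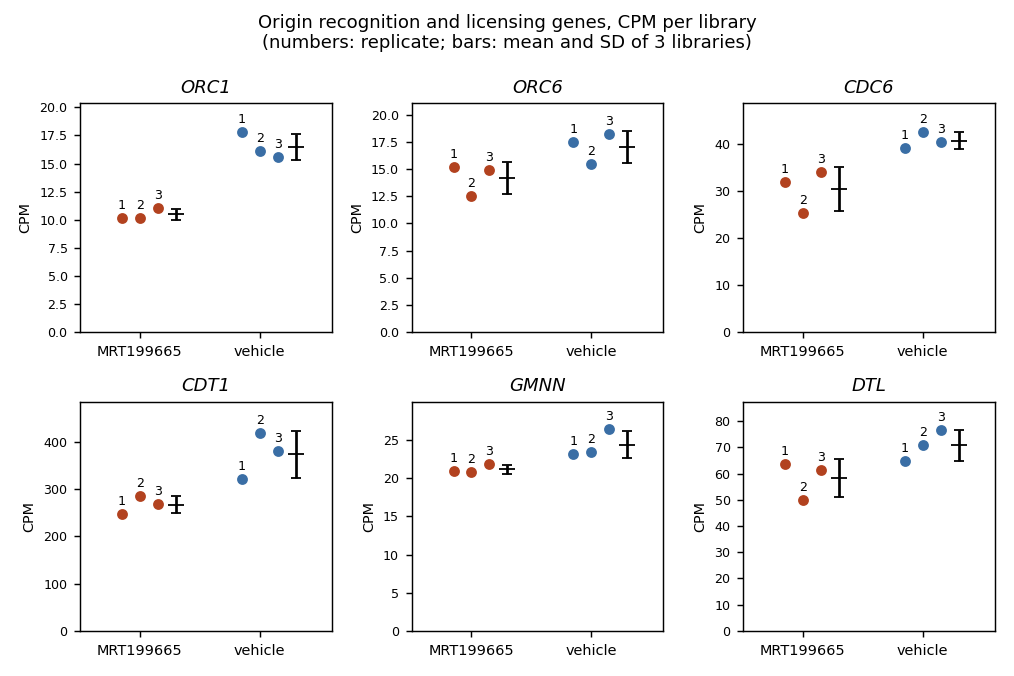
Level in CPM (y axis, from 0) of the 6 origin recognition and licensing genes in each library, MRT199665 left of vehicle, with replicate numbers at the points and the mean and SD of the 3 libraries beside them. In each panel the 3 MRT199665 points lie below the 3 vehicle points, with the widest relative gap in ORC1 and narrow gaps in DTL and ORC6.

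The MCM2 to MCM7 genes, which encode the ring that unwinds DNA, did not show such a separation. In all 6 the groups overlapped, 4 had a negative and 2 a positive log2 fold change, and the median was -0.11, which was -0.065 without vehicle replicate 3 and -0.018 without both MRT199665 replicate 2 and vehicle replicate 1. Summed they stood at 768, 775 and 825 CPM with MRT199665, against 878, 782 and 817 CPM with vehicle. Whether licensing factors and the helicase they load differ in their response was not tested.

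MCM2 had 84.0, 56.8 and 96.7 CPM in the MRT199665 libraries, against 161, 81.5 and 96.0 CPM in the vehicle libraries. Its lower mean rested on vehicle replicate 1, since the log2 fold change of -0.50 ± 0.27 (SE) was -0.16 without that library and 0.03 without both that library and MRT199665 replicate 2. MCM7 had 156, 178 and 155 CPM, against 178, 192 and 183 CPM, and replicate 2 of the treated group reached the lowest vehicle library. MCM6 had 29.7, 33.5 and 32.5 CPM with MRT199665, against 37.2, 30.5 and 37.8 CPM with vehicle. The other 3 subunit genes, MCM3, MCM4 and MCM5, had log2 fold changes of 0.17, -0.08 and 0.10, with 95% intervals reaching from -0.36 at the lowest to 0.65 at the highest.

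Genes of helicase activation were mostly lower, with a median log2 fold change of -0.27, which was -0.14 without vehicle replicate 1. Of the 6 genes 5 were negative and 2 were lower without overlap between groups, against 10.8% of all genes tested. MCM10, which is needed to start the active helicase, had 22.7, 19.1 and 23.1 CPM with MRT199665, against 27.3, 29.9 and 26.9 CPM with vehicle. The groups did not overlap, and MCM10 was 1.29-fold lower (log2 fold change -0.37 ± 0.13, SE, adjusted p = 0.239 by edgeR). GINS1, a GINS subunit, had 20.8, 18.1 and 19.3 CPM, against 22.2, 25.3 and 27.3 CPM, again without overlap (1.28-fold lower, adjusted p = 0.269 by edgeR).

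CDC45, the helicase cofactor, had 7.48, 6.42 and 8.93 CPM with MRT199665, against 12.5, 9.01 and 7.94 CPM with vehicle, and vehicle replicate 3 lay within the treated range. The subunits of the GINS complex did not go one way. GINS2 had a log2 fold change of 0.25 ± 0.22 (SE), GINS3 of -0.05 ± 0.18 and GINS4 of -0.19 ± 0.22. In GENCODE release 29 the 3′ end of GINS2 overlaps an exon of GSE1 on the opposite strand, and the sources used here do not state how strand was counted.

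Of the 8 listed primase and polymerase genes, 7 had a negative log2 fold change, with a median of -0.27, which was -0.14 without MRT199665 replicate 2. In 1 of them, POLA1, the groups did not overlap, while 10.8% of all genes tested were lower without overlap. POLA1, the catalytic subunit of the polymerase that extends primers, had 29.7, 20.8 and 23.8 CPM with MRT199665, against 32.5, 32.9 and 31.2 CPM with vehicle. It was 1.29-fold lower (log2 fold change -0.37 ± 0.15, SE, adjusted p = 0.300 by edgeR).

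POLD1, the catalytic subunit of the lagging strand polymerase delta, had 152, 105 and 142 CPM in the MRT199665 libraries, against 129, 231 and 194 CPM in the vehicle libraries. Vehicle replicate 1 lay within the treated range, and the SD was 51.8 CPM among vehicle libraries. POLE, the catalytic subunit of the leading strand polymerase epsilon, had 36.8, 28.7 and 35.4 CPM with MRT199665, against 31.9, 46.8 and 42.2 CPM with vehicle, with the same vehicle library low. The log2 fold changes of the catalytic subunits were -0.37 for POLA1, -0.47 for POLD1 and -0.25 for POLE, beside 0.07 for the partner subunit POLA2, -0.04 for POLD2 and -0.19 for POLE2. Without vehicle replicate 2 they were -0.29 for POLD1 and -0.14 for POLE, beside -0.21 for POLD2 and -0.26 for POLE2. Without both replicates numbered 2 they were -0.14 for POLD1 and -0.04 for POLE, beside -0.28 for POLD2 and -0.17 for POLE2, so that the order within these pairs turned. The further subunit genes POLD3, POLE3 and POLE4, from the list described below, had positive log2 fold changes of 0.07, 0.29 and 0.28. In POLE3 and POLE4 every MRT199665 library lay above every vehicle library, which held for 11.4% of all genes tested. In POLE4 the groups barely separated, with 62.9 CPM in MRT199665 replicate 1 and 62.5 CPM in vehicle replicate 2. The primase genes PRIM1 and PRIM2 were at -0.31 and -0.29, with wide 95% intervals of -1.13 to 0.51 and -0.90 to 0.33.

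All 6 clamp and clamp loader genes had negative log2 fold changes, with a median of -0.23. In 2 of them, RFC3 and RFC4, the groups did not overlap, while 10.8% of all genes tested were lower without overlap. RFC3 had 55.3, 40.4 and 52.5 CPM with MRT199665, against 68.6, 66.3 and 68.4 CPM with vehicle. The vehicle libraries were close together and MRT199665 replicate 2 was the lowest of all. RFC3 was 1.37-fold lower (log2 fold change -0.45 ± 0.14, SE, adjusted p = 0.171 by edgeR).

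RFC4 had 233, 156 and 213 CPM in the MRT199665 libraries, against 293, 285 and 280 CPM in the vehicle libraries. The pattern over libraries was that of RFC3, and RFC4 was 1.42-fold lower (log2 fold change -0.51 ± 0.15, SE, adjusted p = 0.172 by edgeR). Its 3′ end overlaps an exon of EIF4A2 on the opposite strand in GENCODE release 29, and EIF4A2 held 8735 counts over the 6 libraries beside 16588 for RFC4. RFC5 had 18.8, 26.5 and 22.1 CPM with MRT199665, against 33.9, 23.7 and 23.5 CPM with vehicle, so the groups overlapped. The large subunit RFC1 and RFC2 had log2 fold changes of -0.18 ± 0.13 and -0.12 ± 0.14 (SE), which came to -0.10 for RFC1 and -0.02 for RFC2 at the nearest to 0 when each library was left out in turn. PCNA, the clamp itself and a common marker of proliferation, averaged 65.2 ± 10.2 CPM in MRT199665 libraries, against 68.9 ± 7.84 CPM in vehicle libraries (SD, n = 3 each), a log2 fold change of -0.08 with a 95% interval of -0.41 to 0.26.

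In the group that binds single strands and joins Okazaki fragments, 3 of 5 genes had a negative log2 fold change. RPA3 and LIG1 had no overlap between groups, while 10.8% of all genes tested were lower without overlap. RPA3, the small subunit of the single-strand binding protein RPA, had 30.1, 30.4 and 31.3 CPM with MRT199665, against 38.3, 41.3 and 37.4 CPM with vehicle. Both groups were tight, and RPA3 was 1.27-fold lower (log2 fold change -0.35 ± 0.11, SE, adjusted p = 0.194 by edgeR). RPA2, another RPA subunit, had 56.3, 71.0 and 62.3 CPM with MRT199665, against 67.2, 44.1 and 54.9 CPM with vehicle, with overlap. The log2 fold changes were 0.19 ± 0.17 for RPA2 and -0.02 ± 0.20 for the large subunit RPA1 (SE).

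LIG1, the ligase that seals Okazaki fragments, had 281, 181 and 260 CPM in the MRT199665 libraries, against 301, 433 and 320 CPM in the vehicle libraries. MRT199665 replicate 2 was far below the rest and vehicle replicate 2 far above. LIG1 was 1.46-fold lower (log2 fold change -0.55 ± 0.20, SE, adjusted p = 0.251 by edgeR), and its log2 fold change was -0.20 without both of these libraries. FEN1, the nuclease that trims fragment flaps, had 24.2, 75.2 and 37.8 CPM with MRT199665, against 66.6, 18.1 and 27.2 CPM with vehicle. The libraries within each group differed more than the groups did, and the 95% interval of the log2 fold change ran from -0.90 to 1.44.

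Nucleotide and uracil enzymes overlapped between the groups in all 3 cases, with negative estimates and a median of -0.22, which was -0.13 without vehicle replicate 2. TYMS, the thymidylate synthase, had 199, 173 and 201 CPM with MRT199665, against 191, 243 and 234 CPM with vehicle (log2 fold change -0.22 ± 0.13, SE). The 3′ end of TYMS overlaps an exon of ENOSF1 on the opposite strand in GENCODE release 29. TK1, the thymidine kinase of the salvage route, had 56.6, 40.4 and 53.7 CPM with MRT199665, against 48.6, 74.6 and 61.5 CPM with vehicle (log2 fold change -0.29 ± 0.19, SE, and -0.13 without vehicle replicate 2). UNG, which removes uracil from DNA, had 302, 177 and 285 CPM, against 245, 293 and 240 CPM, and its log2 fold change was -0.02 with a 95% interval of -0.48 to 0.43, and 0.18 without MRT199665 replicate 2. In these 3 genes MRT199665 replicate 2, the shallowest library, was the lowest of the 6, and the part of depth in this was not tested.

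Of the fork protection genes, TIPIN had 7.63, 6.08 and 9.14 CPM with MRT199665, against 12.2, 9.61 and 9.67 CPM with vehicle. TIPIN, the partner of TIMELESS at the fork, was 1.36-fold lower without overlap (log2 fold change -0.44 ± 0.19, SE, adjusted p = 0.338 by edgeR). CLSPN, the checkpoint mediator claspin, had 52.2, 50.2 and 57.9 CPM, against 64.9, 46.2 and 55.6 CPM, and the groups overlapped.

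Genes of chromatin and histone supply had a median log2 fold change of -0.10, which was -0.014 without vehicle replicate 1, and the groups overlapped in all 4. CDCA7, which recruits the remodeller HELLS, had 23.4, 21.0 and 22.5 CPM with MRT199665, against 27.3, 22.6 and 23.8 CPM with vehicle. NASP, a histone chaperone, had 225, 264 and 239 CPM, against 357, 212 and 263 CPM, and vehicle replicate 1 stood above all others. SLBP, which binds the stem-loop of histone messages, had 19.0, 29.2 and 17.0 CPM with MRT199665, against 18.5, 17.2 and 20.5 CPM with vehicle, with MRT199665 replicate 2 the highest. HELLS itself averaged 40.0 ± 2.83 CPM in MRT199665 libraries, against 41.9 ± 2.31 CPM in vehicle libraries (SD, n = 3 each).

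**Figure D4:**
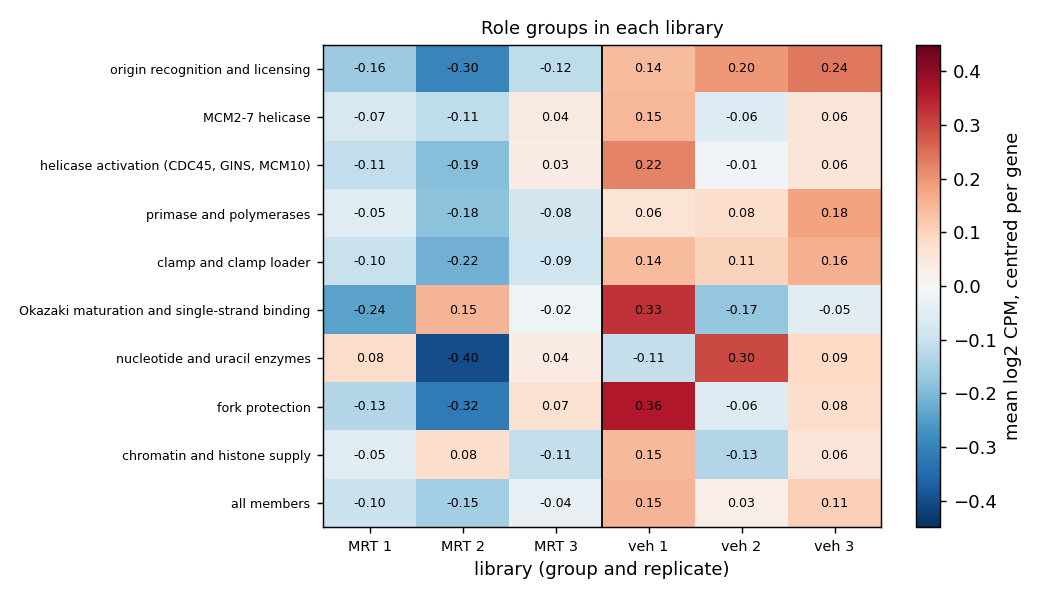
Mean log2 CPM, centred per gene over the 6 libraries, for each role group (rows) in each library (columns, MRT199665 left of vehicle, replicates 1 to 3), with blue below and red above the gene's mean. The licensing, polymerase and clamp rows are negative in all MRT199665 libraries and positive in all vehicle libraries, while the nucleotide and Okazaki rows follow single libraries, such as -0.40 for nucleotide enzymes in MRT199665 replicate 2.

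Much of the variation of these genes lay within the groups. The first component of the within-group deviations over all genes held 59.4% of that variation and put MRT199665 replicate 2 (35.5) and vehicle replicate 1 (30.5) at one end, and MRT199665 replicate 1 (-27.3) and vehicle replicate 2 (-26.1) at the other. In 10 of the 46 genes MRT199665 replicate 2 and vehicle replicate 1 were each the highest library of their group (21.7%, against 22.4% of all genes tested). These genes were MCM3, GINS3, PRIM1, POLA2, POLD2, RFC5, FEN1, RPA1, RPA2 and NASP. In 16 genes the same libraries were each the lowest of their group (34.8%, against 23.8% of all genes tested), and these included POLD1, POLE, PRIM2, LIG1, TK1 and TYMS. Both shares are descriptions of these 6 libraries.

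The within-group SD on the log2 CPM scale was greatest in FEN1 (0.89), PRIM1 (0.56) and MCM2 (0.46), against a median of 0.23 over the 46 genes and 0.23 over all genes tested. Genes of one complex took opposite sides. PRIM1, the catalytic primase subunit, had 4.83, 7.94 and 4.82 CPM with MRT199665, against 10.7, 4.03 and 6.41 CPM with vehicle. PRIM2, its partner, had 12.1, 7.44 and 11.1 CPM, against 8.39, 16.7 and 13.0 CPM, so that PRIM2 was lowest in its group in the libraries where PRIM1 was highest. The licensing genes varied less, with a median within-group SD of 0.15. Without both MRT199665 replicate 2 and vehicle replicate 1, 2 of the 46 genes were called (4.35%, against 3.24% of all genes in that fit), CDT1 (adjusted p = 0.0112 by edgeR) and POLD1 (adjusted p = 0.0342). That pair was chosen after the data were seen, and vehicle replicate 1 was the lowest vehicle library for both genes. These calls are therefore no independent support. Without MRT199665 replicate 2 and vehicle replicate 2, or without MRT199665 replicate 1 and vehicle replicate 2, edgeR called none, as in the fit of all 6 libraries.

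**Figure D5:**
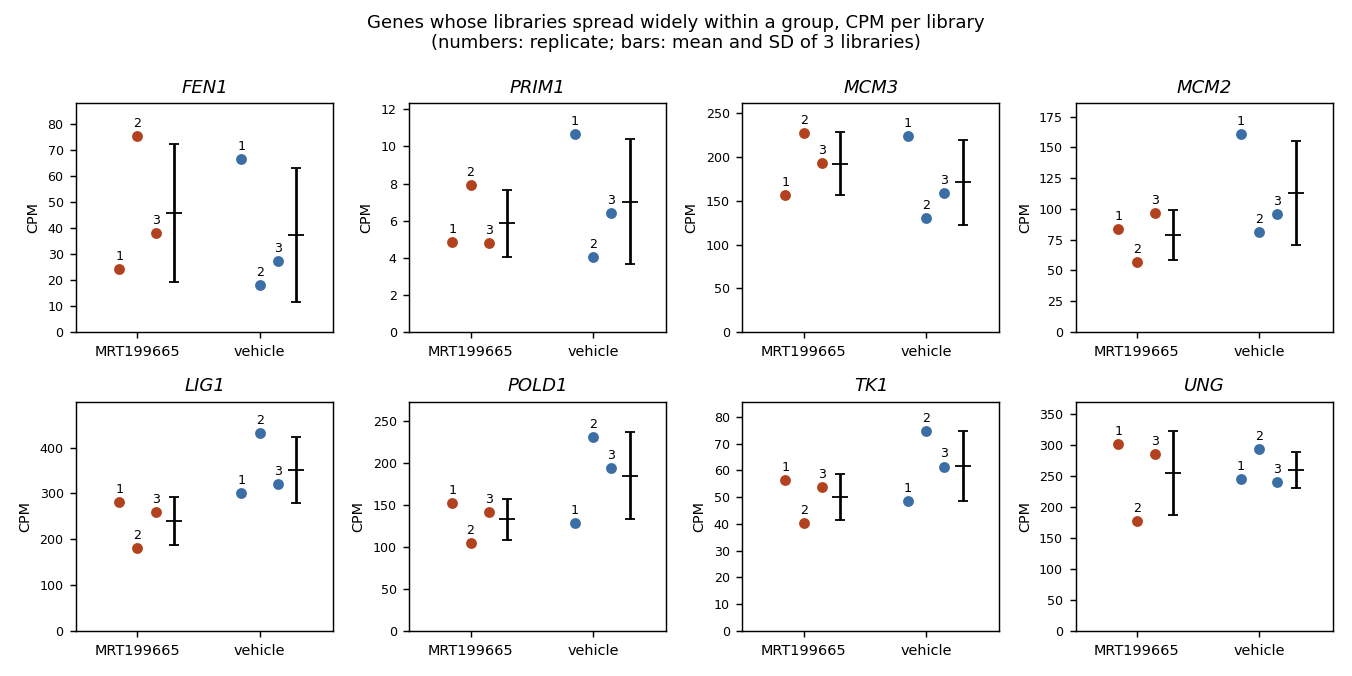
Level in CPM (y axis, from 0) of 8 replication genes in each library, MRT199665 left of vehicle, with replicate numbers at the points and the mean and SD of the 3 libraries beside them. In FEN1 and PRIM1 the highest points are MRT199665 replicate 2 and vehicle replicate 1, while LIG1, POLD1 and TK1 have these libraries lowest in their groups.

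A further list of 55 replication genes outside the 46, covering other origin, fork, nucleotide, chromatin assembly and E2F genes, was examined beside them. Of these, 54 were tested, and POLD4 failed the filter with at most 9 counts in a library. By edgeR 1 was called, in the higher direction (1.85%, against 0.85% of all genes tested), and none in the lower (against 0.398%). At an unadjusted p under 0.05, 7 were lower (13.0%, against 7.11% of all genes tested) and 3 higher (5.56%, against 7.64%). The log2 fold change was negative for 33 of the 54 (61.1%, against 49.1%). In 12 the MRT199665 libraries all lay below the vehicle libraries (22.2%, against 10.8%), and in 4 all lay above (7.41%, against 11.4%). The called gene was RNASEH2C, a subunit of the ribonuclease that removes ribonucleotides from DNA, with 107, 164 and 102 CPM in the MRT199665 libraries, against 61.2, 66.0 and 60.1 CPM in the vehicle libraries.

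The log2 fold change of RNASEH2C was 0.99 ± 0.18 (SE), or 1.99-fold higher, with an adjusted p of 0.0454 by edgeR, MRT199665 replicate 2 far above the rest, and no overlap. Its call held in 8 of 16 alternatives and was kept without 1 of the 6 libraries, MRT199665 replicate 2. Leaving out any other single library ended the call, and the adjusted p then reached 0.237 at most. RNASEH2A, the catalytic subunit of the same enzyme, was 1.33-fold lower instead (log2 fold change -0.41 ± 0.14, SE, adjusted p = 0.218 by edgeR). The remaining subunit gene, RNASEH2B, averaged 63.6 CPM with MRT199665 and 63.7 CPM with vehicle (log2 fold change -0.005 ± 0.13, SE).

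The next genes by p were not called. WDHD1, which links the helicase to polymerase alpha, had 13.2, 13.2 and 11.4 CPM with MRT199665, against 18.0, 17.6 and 18.2 CPM with vehicle. DSCC1 and ATAD5, parts of alternative clamp loading and unloading complexes, were 1.37-fold and 1.32-fold lower without overlap between groups. E2F2, an activating E2F factor, had 15.9, 19.1 and 17.8 CPM with MRT199665, against 13.2, 9.35 and 12.0 CPM with vehicle. That is 1.52-fold higher (adjusted p = 0.140 by edgeR). E2F1 and E2F3 did not share this, with log2 fold changes of -0.14 ± 0.17 and -0.17 ± 0.29 (SE) and overlap between groups.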

How the data were processed

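Per the labels' protocols, the 6 libraries were prepared with Lexogen's 3′ mRNA-seq kit. Per the submitters' processing notes, the tools were STAR 2.4, HTSeq 0.6.1 and DESeq2, and the build was hg19. The gene annotation, the strand setting and any read filter were not given in the sources used here. Values in the deposited table are raw counts by gene symbol, whole numbers left unscaled by the authors. Sample titles gave the groups and the replicate numbers.

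All genes were fitted together in edgeR 4.0.16 (R 4.3.3), using TMM scaling, a model of group alone and the functions glmQLFit and glmQLFTest. Low counts were removed by filterByExpr (minimum count 10, minimum total 15), leaving 13053 genes. Calls used a Benjamini-Hochberg adjusted p under 0.05. The SE was the log2 fold change divided by the square root of F, and 95% intervals used the moderated degrees of freedom. Centred log2 CPM used a prior count of 2. The test was checked on simulated counts, drawn independently for each gene and library, with planted changes of 1.5-fold or more. The check did not cover smaller changes, such as most of those reported here, or variation shared between genes within a group.

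Alternatives were other scalings and filters, DESeq2 1.42.0, limma-voom (limma 3.58.1), the replicate number as a block, and leaving out libraries. The genes, role groups and lists were chosen with earlier results of these data known. Values in every library are given for the 3 genes of each role with the lowest p and for genes without overlap at an unadjusted p under 0.05, and also for DTL, ORC6, GMNN, FEN1, PRIM1 and PRIM2, which were chosen after their values were seen. Of 11 pseudogene symbols of these genes none had more than 1 count in all. Libraries of 1 group differed beyond sampling noise (chi-square per degree of freedom of at least 8.59), so none was treated as a copy. Some markers of other cell types are not reported here and were left out of the sums.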

Additional observations from a re-analysis of the deposited data

How the results depend on the processing

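No gene of the 46 was called with RLE or upper-quartile scaling, with a minimum count of 30, by limma-voom or in the edgeR fit with the replicate block. The replicate block gave 5 members lower at an unadjusted p under 0.05 and, among the other replication genes, 0 called. Same-numbered libraries did not deviate together (correlations of -0.547, -0.467 and 0.0182 over all genes). Whether the numbers mark a shared culture or batch cannot be told from these correlations, and the main fit did not pair the libraries. Without a low-count filter 4 of the 46 were called (ORC1, MCM2, RFC4 and LIG1, 8.70%, against 2.28% of all genes in that fit). That fit includes the genes that fail the filter, which all 46 passed, so these shares cover unlike sets. DESeq2 called 1 of the 46 (2.17%, against 2.78%). At a minimum count of 30, 0 of the other replication genes were called. In the settings that left out 1 or 2 libraries, members called numbered 0 to 2, members lower at an unadjusted p under 0.05 numbered 6 to 15, members higher at that level 0 to 2, members lower without overlap 15 to 23 (fewer libraries make overlap rarer) and other replication genes called 0 to 1. The settings without 2 libraries other than both replicates numbered 2 were chosen after seeing the data. In the same settings the median log2 fold changes lay between -0.23 and -0.17 for all members, -0.41 and -0.25 for origin recognition and licensing, -0.18 and -0.018 for the MCM2 to MCM7 ring, -0.32 and -0.028 for helicase activation, -0.32 and -0.14 for primase and polymerases, -0.35 and -0.16 for clamp and clamp loader, -0.31 and 0.16 for Okazaki maturation and single-strand binding, -0.32 and 0.00102 for nucleotide and uracil enzymes, -0.37 and -0.041 for fork protection, -0.20 and -0.014 for chromatin and histone supply. The log2 fold change changed sign in at least 1 of these settings, none of them a call, for 21 genes, and ranged between -0.75 and 0.028 for MCM2, -0.14 and 0.41 for MCM3, -0.16 and 0.0053 for MCM4, -0.042 and 0.32 for MCM5, -0.013 and 0.43 for GINS2, -0.27 and 0.067 for GINS3, -0.32 and 0.016 for GINS4, -0.84 and 0.13 for PRIM1, -0.52 and 0.12 for PRIM2, -0.084 and 0.17 for POLA2, -0.28 and 0.088 for POLD2, -0.20 and 0.033 for PCNA, -0.24 and 0.017 for RFC2, -0.61 and 0.99 for FEN1, -0.33 and 0.16 for RPA1, -0.046 and 0.35 for RPA2, -0.43 and 0.00102 for TK1, -0.16 and 0.27 for UNG, -0.18 and 0.12 for CLSPN, -0.43 and 0.028 for NASP, -0.12 and 0.33 for SLBP. For these sign changes the cause was not tested. Depth (from 5871097 counts) and 3 libraries a group limit the precision, with a median SE of 0.16 for the log2 fold changes of the 46 genes.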
